A study of Homo sapiens with 24 samples.

Results

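The expression of 10 genes for cytokines, cytokine receptors and one of their signalling partners was followed in HT29, a human cell line derived from a colon adenocarcinoma, across 6 groups of 4 arrays each. The genes are TNF, CD70, IL17C, IL32, FLT3LG, CSF2, PDGFB, TNFRSF9, IL6ST and IRAK2. They were selected on their measured values, as cytokines and receptors that were higher with TRAIL and the other treatments in these same arrays, out of 36337 gene names on the array. All probes that carry these names, 17 in all, were considered, and each of the 10 genes had a probe that passed the filter on dim probes and was among the 20703 genes tested. Because the treated and untreated arrays served in this choice, differences from untreated cells and differences between a co-treatment and its single treatments are given as descriptions without a test.

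The untreated group (NT) was left without agents. The C3/C2 group received 30 mM propionate (C3) and 15 mM acetate (C2), short-chain fatty acids made by propionibacteria, and the SN group a culture supernatant of Propionibacterium freudenreichii in DMEM, diluted to 1/2. The TRAIL group received 100 ng/ml of TRAIL, a Flag-tagged death ligand, together with 2 µg/ml of the anti-Flag antibody M2. The TRAIL+C3/C2 and TRAIL+SN groups combined these agents, and every treatment lasted 6 h. All groups grew in DMEM with heat-inactivated serum, and the labels do not say whether cells without TRAIL were given the antibody. One cell line was used, the labels number the arrays of a group 1 to 4, and per the study's methods 2 independent experiments were done in duplicate, so that the spread between arrays may be partly technical. The first replicates of NT and C3/C2 shared slide 1, their remaining replicates shared slide 2, the arrays with either SN or TRAIL alone were on slide 3, and the co-treated arrays were on slide 4. For SN, TRAIL and both co-treatments, a difference from NT and a difference between slides therefore cannot be told apart, whereas C3/C2 can be compared with NT, TRAIL with SN, and TRAIL+SN with TRAIL+C3/C2 within slides.

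Levels are log2 intensities after subtraction of the array's 75th percentile, so that a difference of 1 is a 2-fold change, and levels of different genes were not compared because each probe has its own brightness. That percentile had a median intensity of 881 in NT, which was 816 and 758 in the groups given C3/C2 or SN, 659 in the TRAIL group, and 503 (TRAIL+C3/C2) and 518 (TRAIL+SN) in the co-treated groups, and between 53.0% and 60.6% of probes were well above background on an array. Its part in the differences was not tested. Arrays of the same group correlated at 0.993 to 0.998 over the genes tested. Of the 11 colon epithelial marker genes, 11 were well above background on all 24 arrays. Of 13 leukocyte genes 4 were so on all arrays and MS4A1, CD53 and NKG7 on none, and of 7 genes of endothelium and fibroblasts 3 were so on all arrays and COL1A2, COL3A1 and DCN on none. The summed linear level of the leukocyte genes ran from 4.92 to 6.66 in NT and from 7.60 to 10.1 with TRAIL+SN, against 1034 to 1151 and 1409.6 to 1449 for the epithelial genes, while the sum of the endothelial and fibroblast genes ran from 0.225 to 0.279 and from 0.921 to 1.44. The part of these sums in the results was not tested. These are bulk cultures, in which fewer cells expressing a gene and less RNA per cell cannot be told apart.

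TNF is the founding ligand of its superfamily and a main driver of inflammation, and TRAIL is another ligand of that superfamily, which binds death receptors and can start apoptosis as well as NF-kB signalling. CD70 is the ligand of CD27, and TNFRSF9 (CD137) is a co-stimulatory receptor of the same superfamily whose ligand is TNFSF9. IL17C is a member of the IL-17 family that epithelial cells make in response to bacteria and inflammatory cytokines. IL32 is an inflammatory cytokine, FLT3LG and CSF2 (GM-CSF) are growth factors of blood and dendritic cells, and PDGFB is a growth factor chain that acts on mesenchymal cells. IL6ST (gp130) is the receptor subunit shared by the cytokines of the IL-6 family, and IRAK2 is a kinase-like adaptor in signalling from IL-1 and Toll-like receptors. Several of these genes are textbook targets of NF-kB in inflamed tissue.

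The probes that measure FLT3LG, CSF2, IL32 and IL6ST are shown because the results below rest on how these oligonucleotides hybridised, and because the pair for IL32 gave different sizes of change. They are written in lower case as the array design gives them, with their hg19 positions. The FLT3LG probe lies at chr19:49979743-49979802 (+), the CSF2 probe at chr5:131411452-131411511 (+), the IL32 probes at chr16:3119308-3119367 (+) and chr16:3119014-3119073 (+), and the IL6ST probe at chr5:55238513-55238572 (-). An exon annotation of hg19 was not used here.
FLT3LG, probe A_23_P78742: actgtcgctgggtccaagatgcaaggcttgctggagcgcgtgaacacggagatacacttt
CSF2, probe A_23_P133408: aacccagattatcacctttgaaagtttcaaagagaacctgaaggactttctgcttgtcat
IL32, probe A_23_P15146: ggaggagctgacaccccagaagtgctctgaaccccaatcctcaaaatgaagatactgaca
IL32, probe A_33_P3346826: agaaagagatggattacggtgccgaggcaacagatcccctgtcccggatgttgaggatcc
IL6ST, probe A_33_P3233841: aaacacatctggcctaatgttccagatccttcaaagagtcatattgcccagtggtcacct

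The 250 bases before the start of transcription were taken from RefSeq (GRCh38.p14) for 7 of the 10 genes, in 9 windows, and those of IL17C, PDGFB and CD70 were not analysed here. Both strands were searched for the NF-kB consensus, for the AP-1 letters TGANTCA, for the TATA letters TATAAA and for the GC box GGGCGG. The NF-kB consensus was found in 3 of the 9 windows, those of TNFRSF9, IL6ST and the first of a pair for IL32, against 9.96% of 35116 windows of the same length. AP-1 letters were found in 1 window (TNFRSF9; 6.57% of all windows), TATA letters in 1 (TNF; 10.7%) and a GC box in 6 (42.6%), and in IL6ST an NF-kB match overlaps a GC box. A match of letters is a description and not evidence of binding. The windows of TNF, of IL32 and of TNFRSF9 are shown because TNF and IL32 were followed most closely here and TNFRSF9 holds both inflammatory motifs. They lie at chr6:31575315-31575564 (+), chr16:3065153-3065402 (+) and chr1:7940840-7941089 (-), with matches in capitals.
TNF, TATA and GC box letters: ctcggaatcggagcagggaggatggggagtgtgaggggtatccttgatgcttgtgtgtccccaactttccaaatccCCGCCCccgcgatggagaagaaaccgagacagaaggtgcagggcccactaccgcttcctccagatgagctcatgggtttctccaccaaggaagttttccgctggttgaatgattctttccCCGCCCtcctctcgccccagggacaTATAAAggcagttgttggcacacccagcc
IL32, NF-kB consensus on both strands: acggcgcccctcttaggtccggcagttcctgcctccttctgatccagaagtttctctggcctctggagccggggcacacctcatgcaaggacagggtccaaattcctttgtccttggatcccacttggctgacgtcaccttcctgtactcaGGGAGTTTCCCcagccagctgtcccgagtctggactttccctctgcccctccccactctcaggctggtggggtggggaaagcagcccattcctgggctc
TNFRSF9, NF-kB consensus, GC box and AP-1 letters in that order: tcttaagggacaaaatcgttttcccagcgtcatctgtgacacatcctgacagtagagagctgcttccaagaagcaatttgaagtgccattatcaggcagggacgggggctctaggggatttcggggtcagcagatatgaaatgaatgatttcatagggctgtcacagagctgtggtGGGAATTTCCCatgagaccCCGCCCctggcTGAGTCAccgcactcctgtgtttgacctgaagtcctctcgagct

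TNF went from a signal not well above background in untreated cells to a level above the 75th percentile of the array in co-treated cells. Its 4 NT arrays lay at -7.06, -7.85, -6.58 and -6.86, and none was well above background. With C3/C2 the arrays lay at -4.90, -5.28, -5.12 and -5.40, with SN at -4.40, -4.69, -3.56 and -4.03, and with TRAIL at -1.78, -1.54, -1.27 and -1.28. Co-treated arrays lay at 1.37, 1.53, 1.40 and 1.37 (TRAIL+C3/C2) and at 1.90, 1.91, 1.20 and 1.29 (TRAIL+SN). The groups formed steps that did not overlap, in which C3/C2 stood above NT, SN above C3/C2, TRAIL above SN and the co-treatments above TRAIL, and only the co-treated groups overlapped with each other. Since NT gave no measured level, folds over NT are lower bounds, computed here and below against the dimmest signal that each array's own flags still set well above background. For TNF these bounds were at least 1.46-fold in the C3/C2 group, 2.93-fold in the SN group and 19.0-fold in the TRAIL group. In co-treated cells they were at least 140-fold (TRAIL+C3/C2) and 157-fold (TRAIL+SN). Against TRAIL alone, where all arrays were above background, TNF was higher by 2.88 ± 0.25 on the log2 scale (SE, n = 4 per group) with C3/C2 added and by 3.04 ± 0.25 with SN added.

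**Figure D1:**
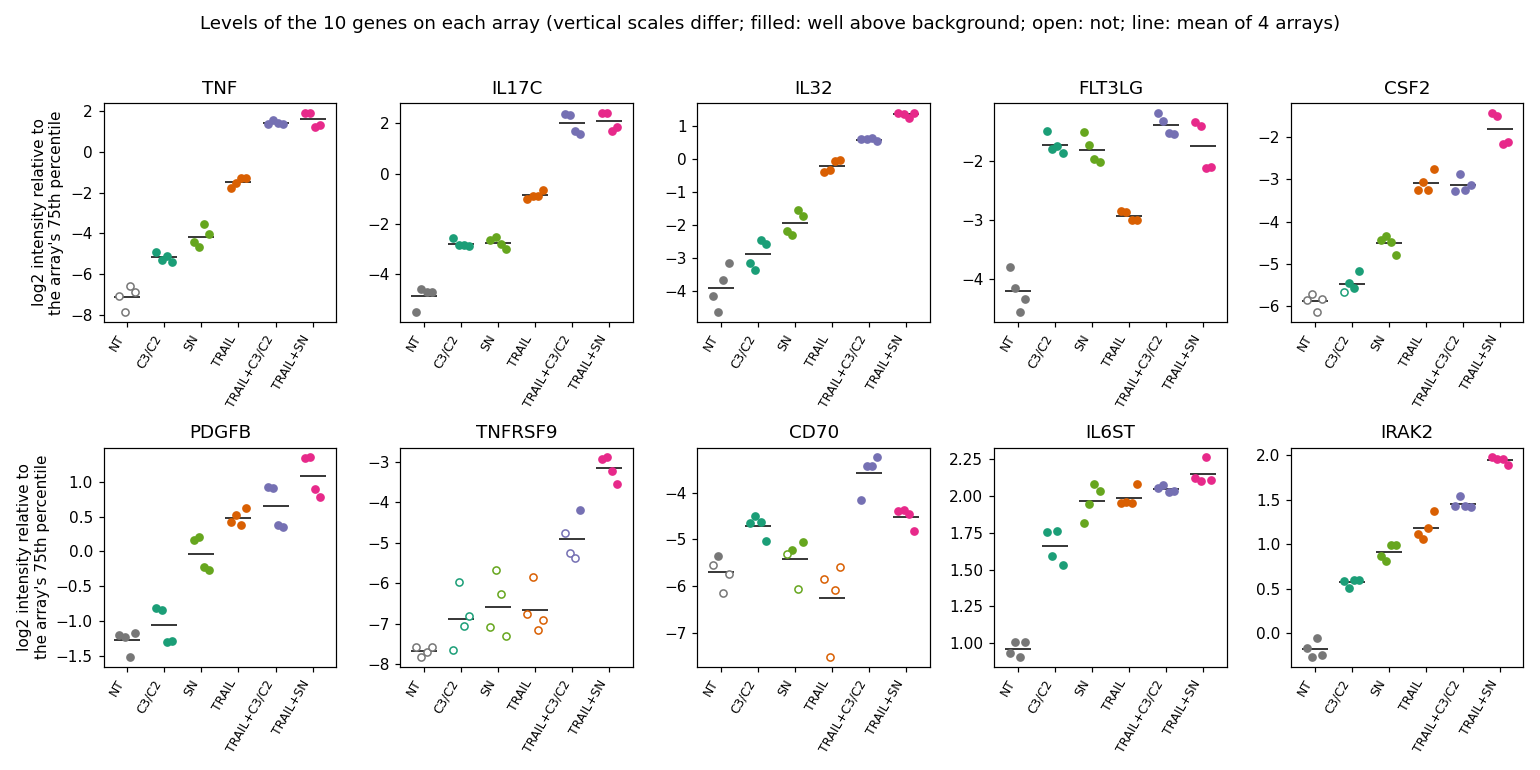
Levels of the 10 genes on each array, as log2 intensity minus the array's 75th percentile, with 1 panel per gene and its own vertical scale. Points are arrays in order of replicate number, filled where the probe was well above background, and lines are means of 4 arrays; TNF climbs from -7.85 on its lowest NT array to 1.91 on its highest TRAIL+SN array, and FLT3LG and CD70 have their lowest treated group in TRAIL.

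IL17C, the epithelial member of the IL-17 family, was also lowest in NT and highest in the co-treatments, and was well above background on all 24 arrays. NT arrays lay at -5.53, -4.59, -4.74 and -4.74. The C3/C2 arrays lay between -2.90 and -2.58 and the SN arrays between -3.02 and -2.55, and these groups overlapped. TRAIL arrays lay at -1.01, -0.89, -0.88 and -0.67, above every array of the groups without TRAIL. Co-treated arrays lay at 2.37, 2.34, 1.70 and 1.58 (TRAIL+C3/C2) and at 2.40, 2.43, 1.71 and 1.86 (TRAIL+SN), where replicates 1 and 2 stood above 3 and 4 in both groups. Relative to NT the gene was 4.31-fold higher in C3/C2, 4.43-fold in SN and 16.4-fold in TRAIL, and in the co-treatments 119-fold (TRAIL+C3/C2) and 128-fold (TRAIL+SN), with an SE of 0.21 on the log2 scale for each. NT replicate 1 stood apart from the other NT arrays, and without it the log2 difference of C3/C2 was 1.90 rather than 2.11.

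IL32 formed smaller and more even steps over the groups, and its untreated arrays were widely spread. NT lay at -4.15, -4.63, -3.65 and -3.15, with an SD of 0.64, and the C3/C2 arrays at -3.14, -3.36, -2.45 and -2.57 overlapped with them. SN arrays lay between -2.31 and -1.54, TRAIL arrays between -0.38 and -0.04, TRAIL+C3/C2 arrays between 0.53 and 0.62 and TRAIL+SN arrays between 1.23 and 1.40. From C3/C2 upwards these 5 groups did not overlap with each other. By this probe IL32 was 3.89-fold above NT in SN and 12.9-fold in TRAIL, and 22.4-fold and 37.9-fold in TRAIL+C3/C2 and TRAIL+SN. The second probe put the groups in the same order with smaller differences, of 0.47 ± 0.15 for C3/C2 and 0.84 ± 0.15 for SN. For TRAIL it gave 2.22 ± 0.15, and for the co-treatments 2.90 ± 0.15 (TRAIL+C3/C2) and 3.49 ± 0.15 (TRAIL+SN; all log2, SE, n = 4 per group).

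CSF2, which encodes GM-CSF, was highest in the group that combined TRAIL and SN. No NT array was well above background, with levels between -6.14 and -5.72, and the C3/C2 arrays reached only -5.67 to -5.17. SN arrays lay at -4.44, -4.34, -4.49 and -4.79, TRAIL arrays at -3.25, -3.05, -3.25 and -2.76, TRAIL+C3/C2 arrays at -3.28, -2.87, -3.24 and -3.14, and TRAIL+SN arrays at -1.42, -1.51, -2.15 and -2.11. The TRAIL and TRAIL+C3/C2 arrays overlapped, with a difference of -0.05 ± 0.16 (0.13 with another background correction), whereas all TRAIL+SN arrays were above both groups. CSF2 was at least 2.24-fold higher than NT in SN, 6.04-fold in TRAIL, 5.82-fold in TRAIL+C3/C2 and 14.7-fold in TRAIL+SN, and in C3/C2, where 3 arrays were well above background, at least 1.16-fold.

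FLT3LG, the ligand of the receptor FLT3, had another order. NT arrays lay at -3.78, -4.15, -4.55 and -4.33 and TRAIL arrays at -2.83, -2.85, -2.99 and -2.99, and the C3/C2 arrays (-1.86 to -1.48) and SN arrays (-2.01 to -1.50) were higher than both. The mean with TRAIL+C3/C2 was 0.34 ± 0.18 above that with C3/C2 and the mean with TRAIL+SN 0.06 ± 0.18 above that with SN, differences that turned to -0.22 and -0.45 with spike-in scaling, and the arrays overlapped in both cases. FLT3LG was 2.44-fold above NT in TRAIL, against 5.61-fold and 5.30-fold in C3/C2 and SN and 7.08-fold and 5.54-fold in TRAIL+C3/C2 and TRAIL+SN. PDGFB, the growth factor chain, was near its untreated level with C3/C2 (0.21 ± 0.17, arrays overlapping; -0.09 with array median scaling). It was higher by 1.24 in SN and 1.76 in TRAIL, and by 1.92 in TRAIL+C3/C2 and 2.36 in TRAIL+SN (log2, SE 0.17 for each). In C3/C2, SN and both co-treatments, PDGFB replicates 1 and 2 stood above 3 and 4.

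CD70 and TNFRSF9, a ligand and a receptor of the TNF superfamilies best known from lymphocytes, were dim. CD70 was well above background on 15 of 24 arrays and on none with TRAIL, where it lay at -5.84, -7.51, -6.08 and -5.58 against -5.55, -5.35, -6.15 and -5.74 in NT. The TRAIL and NT arrays overlapped, and their mean difference of -0.56 turned to 0.31 with another background correction. With SN, CD70 lay at -5.30, -5.22, -6.06 and -5.05, and 2 of these arrays were well above background. C3/C2 arrays lay at -4.65, -4.50, -4.63 and -5.02, TRAIL+C3/C2 arrays at -4.16, -3.43, -3.44 and -3.25 and TRAIL+SN arrays at -4.40, -4.37, -4.46 and -4.83. CD70 was at least 3.61-fold higher with TRAIL+C3/C2 than with TRAIL and at least 1.87-fold higher with TRAIL+SN than with TRAIL. TNFRSF9 was well above background on 5 arrays, all 4 with TRAIL+SN (-2.92, -2.89, -3.22 and -3.54) and 1 with TRAIL+C3/C2 (-4.19, the others between -5.37 and -4.76). None of the 16 arrays of NT, C3/C2, SN and TRAIL showed it well above background, so the levels of these groups have no order. It was at least 5.96-fold above NT and at least 4.85-fold above TRAIL in TRAIL+SN.

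IL6ST and IRAK2, a receptor subunit and an intracellular adaptor, were well above background on all 24 arrays and differed least between groups. IL6ST lay between 0.91 and 1.01 in NT, between 1.53 and 1.76 with C3/C2, and between 1.81 and 2.26 on the other 16 arrays. Its 7 probes were all above NT in every treatment, by 0.60 to 1.37 with C3/C2 and by 0.80 to 1.18 with TRAIL+SN. Of the 7, probe A_32_P45168 is uncertain, because its listed position covers only part of its length and it also carries a second, noncoding record. IRAK2 lay between -0.27 and -0.05 in NT and between 1.89 and 1.97 with TRAIL+SN. Its means exceeded NT by 0.75 in C3/C2, 1.10 in SN and 1.36 in TRAIL, and by 1.63 and 2.13 in TRAIL+C3/C2 and TRAIL+SN, with an SE of 0.06 on the log2 scale. None of its 6 groups overlapped with another. With array median scaling the IRAK2 difference between TRAIL+C3/C2 and TRAIL, 0.27, turned to -0.17, and that of IL6ST, 0.06, to -0.38.

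**Figure D2:**
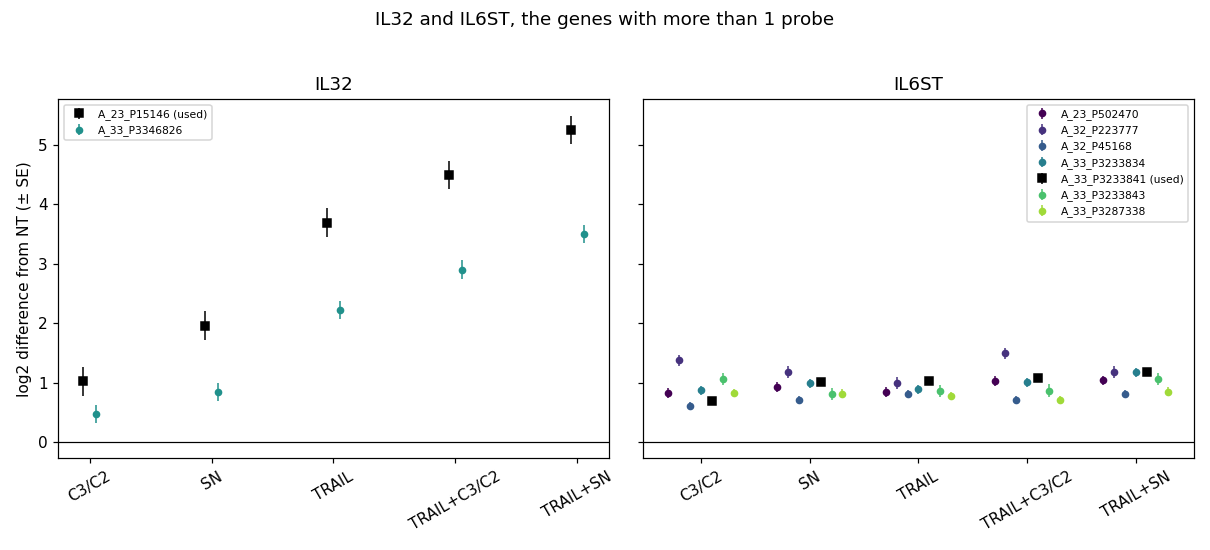
Log2 difference from NT (± SE, 4 arrays per group) for the probes of IL32 and IL6ST, the genes with more than 1 probe; squares mark the probe used. The second IL32 probe reached 3.49 with TRAIL+SN where the probe used reached 5.25, and the 7 IL6ST probes stayed between 0.60 and 1.49.

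Counted together, the number of the 10 genes whose 4 treated arrays all lay above all 4 NT arrays with a mean at least 2-fold higher was 3 in C3/C2 (TNF, IL17C and FLT3LG), beside 13.2% of all genes tested. It was 9 in SN (all but CD70), beside 14%, and 9 in TRAIL (all but CD70), beside 0.657%. It was 10 in TRAIL+C3/C2, beside 15.8%, and 10 in TRAIL+SN, beside 15.8%. The choice of the genes used these contrasts, so nothing is read from the difference. TNFRSF9 is among the 9 of SN and of TRAIL although no array of these groups or of NT showed it well above background. Both counts of 10 depended on the processing. The lowest of the 10 log2 differences from NT, 1.08 in TRAIL+C3/C2 and 1.18 in TRAIL+SN, was 0.43 and 0.69 with spike-in scaling. It was 0.73 and 0.98 with array median scaling, 1.01 and 0.96 with quantile normalization, and 1.01 and 0.83 with another background correction. The median log2 difference of the 10 genes from NT was 0.89 in C3/C2 (0.08 for all genes), 1.31 in SN (-0.02) and 1.56 in TRAIL (0.03), and in co-treated cells 2.76 (TRAIL+C3/C2; 0.10 for all genes) and 3.28 (TRAIL+SN; 0.04). Within slide 2, with 3 arrays a group, C3/C2 was above NT in this way for 5 of the 10, CD70 being added and also TNFRSF9, which was not well above background in either group and was at -0.09 on slide 1, with differences of 1.83 for TNF, 1.83 for IL17C and 2.55 for FLT3LG.

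**Figure D3:**
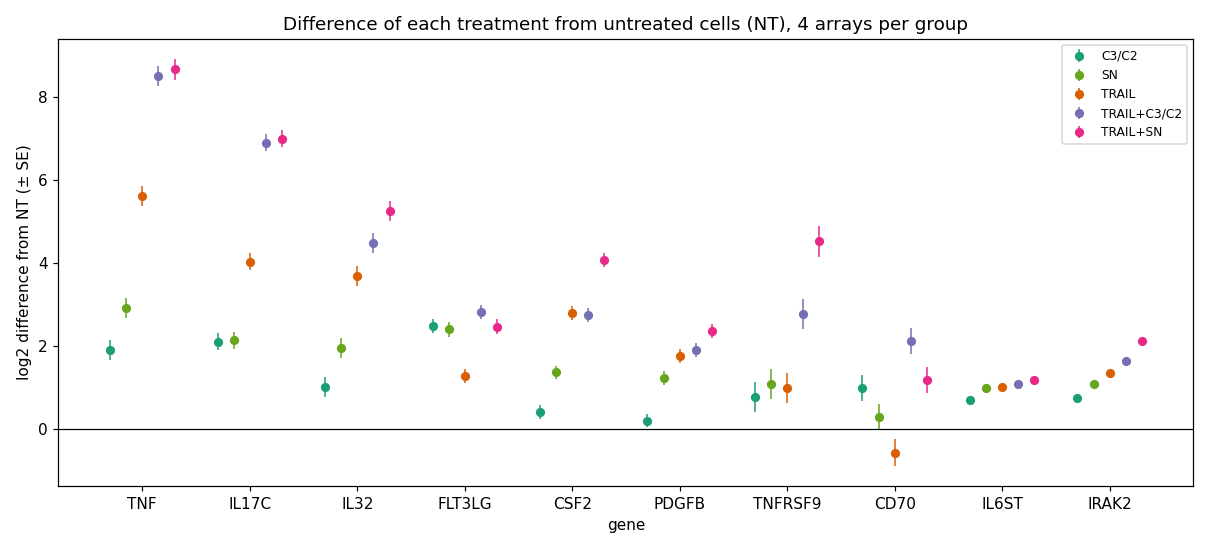
Log2 difference from NT (± SE, 4 arrays per group) of the 10 genes in the 5 treatments. Points of TNF, CSF2, TNFRSF9 and CD70 rest on NT signals that were on most or all arrays not well above background, so their size is not fixed. Of the genes measured on all arrays IL17C lies highest, at 6.90 and above in the co-treatments.

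For co-treatments set against their single treatments, 5 of the 10 genes were higher without overlap and by 2-fold with TRAIL+C3/C2 than with TRAIL (TNF, IL17C, FLT3LG, TNFRSF9 and CD70), as were 14.2% of all genes, and 7 with TRAIL+SN than with TRAIL (the same 5 with IL32 and CSF2), as were 13.9% of all genes. In the other direction, 7 were higher with TRAIL+C3/C2 than with C3/C2, beside 1.54% of all genes, and 7 with TRAIL+SN than with SN, beside 0.874%. TNFRSF9 is counted over TRAIL although its bound there was at least 1.44-fold for TRAIL+C3/C2, which was measured on 1 array. It is also counted over C3/C2 and over SN, where no singly treated array showed it well above background. Its bounds there were at least 1.84-fold over C3/C2 and at least 5.50-fold over SN. CD70 is counted with TRAIL+SN over TRAIL although its bound there was at least 1.87-fold. These contrasts also served in the choice, and since co-treated and singly treated arrays lay on different slides, slide and treatment cannot be told apart in them. TNF was 6.59 ± 0.25 higher with TRAIL+C3/C2 than with C3/C2 and 5.74 ± 0.25 higher with TRAIL+SN than with SN (log2, SE, n = 4 per group). The same differences were 4.79 ± 0.21 and 4.85 ± 0.21 for IL17C and 3.47 ± 0.24 and 3.29 ± 0.24 for IL32.

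On the log2 scale, 2 treatments whose folds multiply give a co-treated difference equal to the sum of the single ones, and the departure from that sum was computed for each gene. Of the 6 genes well above background on all arrays, IL17C departed upwards, by 0.75 ± 0.29 with C3/C2 and 0.81 ± 0.29 with SN. The other 5 had negative values, which were lowest for FLT3LG at -0.95 ± 0.25 and -1.22 ± 0.25, and IL6ST at -0.63 ± 0.09 and -0.84 ± 0.09. IRAK2 was at -0.48 ± 0.09 and -0.34 ± 0.09, PDGFB at -0.05 ± 0.23 (0.03 with quantile normalization) and -0.64 ± 0.23, and IL32 at -0.22 ± 0.34 and -0.40 ± 0.34, both of which turned to 0.13 with another background correction. For TNF (0.97 ± 0.35 and 0.12 ± 0.35, the latter -0.17 with spike-in scaling), CSF2, TNFRSF9 and CD70 (1.69 ± 0.44 and 1.45 ± 0.44) at least one group had no array or few arrays above background, so that the size of their departure is not fixed. No test was run on these values, since both the treated and NT arrays served in the choice.

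**Figure D4:**
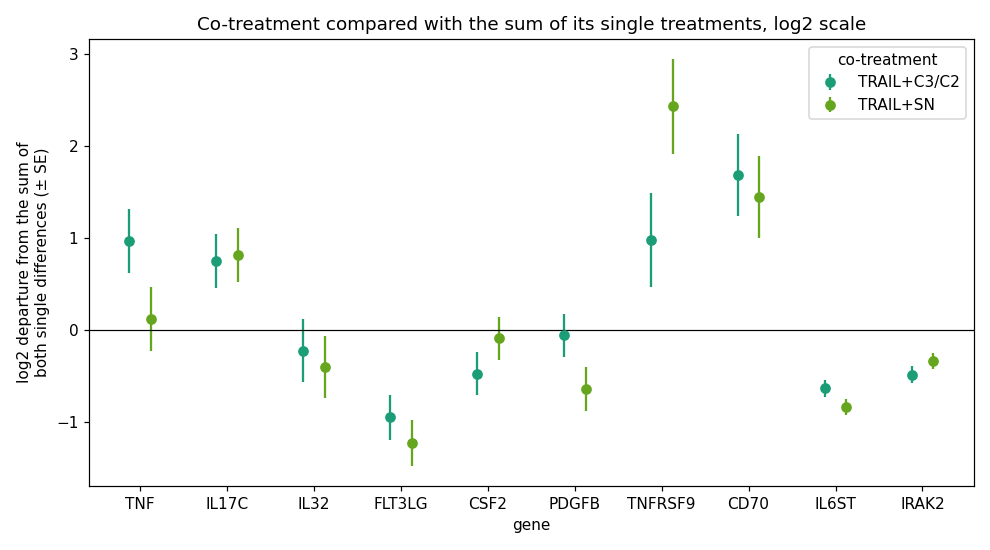
Co-treated difference from NT minus both single differences, in log2 units (± SE, 4 arrays per group), for TRAIL+C3/C2 and TRAIL+SN. Points above 0 exceed the sum, as IL17C does at 0.75 and 0.81, and FLT3LG lies lowest, at -0.95 and -1.22.

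Contrasts between treatments were fitted with limma across all genes, with Benjamini-Hochberg adjustment over 20703 genes, and a gene was called at a 2-fold difference and an adjusted p under 0.05. The choice of the genes did not set SN against C3/C2 or one co-treatment against the other, although it used their arrays, and p-values are given for these contrasts only. The first asks how the supernatant differs from the fatty acids it contains. TNF rose by 1.01 with SN over C3/C2 (95% interval 0.50 to 1.52, limma adjusted p = 0.00204) and PDGFB by 1.03 (0.68 to 1.37, limma adjusted p = 3.7e-05). These were 2 calls of 10, beside 5.71% of all genes. CSF2 (0.95, interval 0.61 to 1.29), IL32 (0.94, 0.44 to 1.44), IRAK2 (0.34, 0.21 to 0.48) and IL6ST (0.31, 0.18 to 0.44) also passed the adjusted p but not 2-fold. The other IL32 probe gave 0.37 with a limma adjusted p of 0.056. The other IL6ST probes ran from -0.25 (limma adjusted p = 0.048) to 0.12, so the rise of IL6ST rests on the probe used alone. IL17C (0.04, -0.40 to 0.47) and FLT3LG (-0.08, -0.45 to 0.29; 0.09 with array median scaling) did not pass, nor did CD70 (-0.71, -1.36 to -0.05, limma adjusted p = 0.071). No SN or C3/C2 array showed TNFRSF9 well above background, so its difference of 0.30 is given as a description, with no test. SN and C3/C2 were on different slides, which cannot be told apart from the treatment, and leaving out single arrays of C3/C2 or SN took TNF as low as 0.80 (without SN replicate 3) and PDGFB as low as 0.95 (without C3/C2 replicate 3), below 2-fold. With normexp background correction TNF was at 0.37 and PDGFB at 0.93, also below 2-fold.

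On slide 4, where both co-treatments lay, CSF2 was higher by 1.33 with TRAIL+SN than with TRAIL+C3/C2 (0.99 to 1.68, limma adjusted p = 2.3e-06), and every TRAIL+SN array was above every TRAIL+C3/C2 array. TNFRSF9 also met the call, which makes 2 of 10 beside 3.51% of all genes, but it passed the filter on dim probes only through TRAIL+SN, the group where it was high, and 1 of 4 TRAIL+C3/C2 arrays was well above background. Its difference of 1.75 is therefore given as a description, with no test. IL32 (0.76, 0.26 to 1.26), IRAK2 (0.49, 0.36 to 0.63) and PDGFB (0.44, 0.10 to 0.79) passed the adjusted p at less than 2-fold, and CD70 did so in the other direction (-0.95, -1.60 to -0.29). TNF (0.16, -0.35 to 0.67), IL17C (0.10, -0.33 to 0.54), IL6ST (0.10, -0.03 to 0.23) and FLT3LG (-0.35, -0.72 to 0.01) did not pass. With normexp background correction TNFRSF9 was at 0.47 and CSF2 at 0.80, both below 2-fold.

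On slide 3, TRAIL and SN can be set side by side, but the genes were picked as high with TRAIL in these arrays, so the values are a description. TRAIL lay above SN for TNF by 2.70 ± 0.25 (SE, n = 4 per group), IL17C by 1.89 ± 0.21, IL32 by 1.73 ± 0.24 and CSF2 by 1.43 ± 0.16, and FLT3LG went the other way, at -1.12 ± 0.18. These 5 of 10 met the call, beside 21.1% of all genes, and because of the choice nothing is read from this count. PDGFB (0.52), IRAK2 (0.26) and IL6ST (0.02) differed by less than 2-fold. CD70 was at -0.85, but with 0 of 4 TRAIL arrays and 2 of 4 SN arrays well above background it was at least 1.01-fold lower, and the value turned to 0.10 with normexp and was -1.10 with spike-in scaling. TNFRSF9 was not well above background in either group. With array median scaling FLT3LG was at -0.90, and with normexp it was at -0.69 and CSF2 at 0.77, below 2-fold.

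The last contrast compared what TRAIL added to SN with what it added to C3/C2. It is built from differences that served in the choice, and SN and C3/C2 lay on different slides, which cannot be told apart from the treatments, so it too is a description. None of the 10 genes was called by limma, beside 2.62% of all genes, and because of the choice nothing is read from this count. TNFRSF9 was called with the replicate numbers as a block and without C3/C2 replicate 1, SN replicate 2 or TRAIL+C3/C2 replicate 4, but no SN or C3/C2 array and 1 TRAIL+C3/C2 array showed it well above background, so nothing is read from these calls. TNF was at -0.85 (95% interval -1.57 to -0.12) and PDGFB at -0.59 (-1.08 to -0.10). For IL17C the value was 0.06, with an interval from -0.55 to 0.68.

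**Figure D5:**
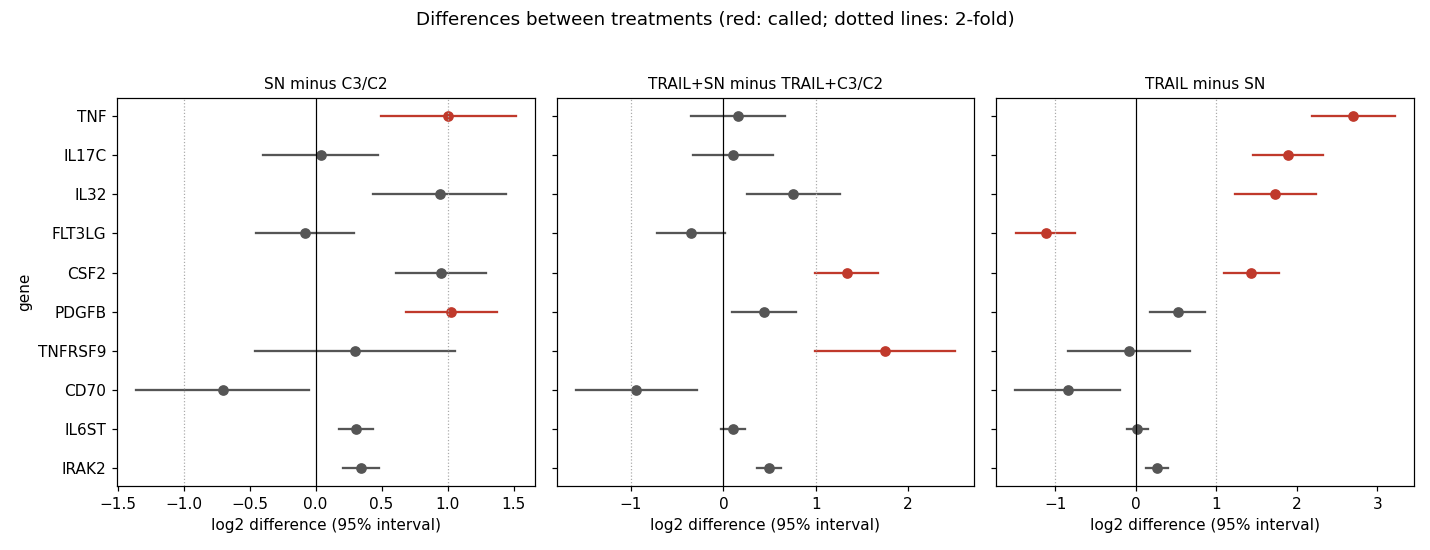
Log2 differences between treatments with their 95% intervals for the 10 genes, red where called by limma at 2-fold and an adjusted p under 0.05, with dotted lines at 2-fold. TNF and PDGFB are called between SN and C3/C2, CSF2 and TNFRSF9 (measured on 1 TRAIL+C3/C2 array) between the co-treatments, and TNF, IL17C, IL32, CSF2 and, downwards, FLT3LG between TRAIL and SN. The marks between TRAIL and SN, and that of TNFRSF9, are a description and not a test.

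Partners of these genes in 8 hand-made lists, from which the 10 genes were left out, comprised 157 genes, of which 104 were tested against NT with limma. In C3/C2, 30 of them rose (28.8%, beside 13.5% of all genes) and 7 fell (6.16% of all genes), and in SN 33 rose (31.7%, beside 14.2%) and 6 fell (9.76% of all genes). In TRAIL 7 rose (6.73%, beside 0.749%) and 1 fell (2.18% of all genes). In TRAIL+C3/C2 37 rose (35.6%, beside 16.2%) and 7 fell (7.97% of all genes), and in TRAIL+SN 38 rose (36.5%, beside 16.1%) and 6 fell (10.1% of all genes). The median log2 difference of the list genes was 0.39, 0.40, 0.21, 0.53 and 0.59 in the same order. The lists were chosen with earlier results of these data known, and the comparisons share the NT arrays. The shares of all genes given here also stand beside the counts of each list below.

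Among the TNF ligands, 8 were tested, of which 1 rose in TRAIL, 4 in C3/C2, 3 in SN, 5 in TRAIL+C3/C2 and 3 in TRAIL+SN. LTB, a ligand of lymphoid tissue, rose with TRAIL by 5.36 ± 0.20 (SE) and with TRAIL+C3/C2 by 2.73 ± 0.20, was at least 1.71-fold lower with SN, where it was not well above background, and stood at 0.89 with TRAIL+SN, below 2-fold. TNFSF9, the ligand of TNFRSF9, rose by between 4.60 and 5.11 in the 4 groups given C3/C2 or SN (SE 0.12) and was at 0.33 with TRAIL alone. TNFSF12 rose by 1.13 to 1.39 in the same 4 groups. Among the 22 TNF receptors tested, 1 rose in TRAIL, 9 in C3/C2, 11 in SN, 12 in TRAIL+C3/C2 and 13 in TRAIL+SN, and 1 fell in TRAIL+C3/C2. TNFRSF10C (a decoy receptor of TRAIL), NGFR and TNFRSF18 were not well above background in NT, and in SN they were at least 2.43-fold, 2.42-fold and 7.35-fold higher. With TRAIL alone none of these 3 receptors was called.

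The TNF receptor adaptors had 9 genes tested, of which 3 rose with TRAIL and with each co-treatment, and 2 with C3/C2 and with SN. Of these adaptors 1 fell with C3/C2 and 1 with SN. TNFAIP3, which restrains NF-kB signalling, rose by 2.89 in TRAIL, 1.72 in C3/C2 and 2.01 in SN, and by 5.22 and 5.54 when TRAIL was combined with these (SE 0.09). BIRC3, a ubiquitin ligase of the receptor complex, rose by 3.36, 1.90 and 2.81 and by 5.02 and 5.62 in that order (SE 0.12). TNIP1, a partner of TNFAIP3, rose by 1.49 in TRAIL and by 1.24 and 1.35 in the co-treatments. Of the IL-1 and Toll-like receptor genes, 24 were tested. In C3/C2 4 rose and 3 fell, in SN 5 and 2, and in TRAIL 1 and 1. In TRAIL+C3/C2 4 rose and 3 fell, and in TRAIL+SN 5 and 3, beside the shares of all genes given above. IL1B, not well above background in untreated cells, was at least 1.18-fold higher in TRAIL, 6.31-fold in C3/C2, 10.5-fold in SN and 25.0-fold and 28.8-fold in the co-treatments. IL1A was at least 3.09-fold higher in SN and 5.71-fold in TRAIL+SN. IL1RAP, a receptor subunit, rose by 1.89 with C3/C2 and 2.99 with SN, while another probe of it gave 0.27 and 1.08.

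In the IL-17 family 7 genes were tested and 1, the receptor IL17RD, rose in the 4 groups given C3/C2 or SN, by 2.61 to 3.22, and was at -0.41 with TRAIL. Between 13.5% and 16.2% of all genes were called higher in these 4 groups, so nothing is read from this count. Of 15 gp130 cytokines and receptors tested, 1 rose in TRAIL, 3 in C3/C2, and 5 in SN and in each co-treatment. In C3/C2 2 fell, and 1 fell in SN and in each co-treatment. IL11, a ligand that uses IL6ST, rose by 2.65 in C3/C2, 3.62 in SN, and 3.15 and 4.10 in the matching co-treatments (SE 0.26), and its receptor IL11RA by 2.01 to 2.66. SOCS3, an inhibitor of gp130 signalling that was not well above background in NT, was at least 3.23-fold, 6.91-fold, 10.8-fold and 14.4-fold higher in the same 4 groups. Of 11 blood growth factors and receptors tested, 3 rose in C3/C2, 2 in SN, 3 in TRAIL+C3/C2 and 4 in TRAIL+SN. In the same order 1, 1, 2 and 2 fell. Their median log2 differences from NT in these groups were 0.13, -0.03, 0.20 and -0.06, against 0.08, -0.02, 0.10 and 0.04 for all genes. CSF3 (G-CSF) was well above background on all arrays with C3/C2 and TRAIL+C3/C2, at least 3.15-fold and 4.68-fold above NT, and on none of NT, SN, TRAIL and TRAIL+SN, although it was called in the last of these. CSF1R was at least 2.48-fold above NT with SN, and EPOR, the erythropoietin receptor, rose by 2.30 to 2.82 in the 4 groups given C3/C2 or SN and was at 0.43 with TRAIL. Of 8 genes of the PDGF and VEGF family, 4 rose in each of these groups. PGF, an angiogenic factor, rose by 3.93 to 4.45 and VEGFA by 1.15 to 2.95, although a second VEGFA probe lay between 0.16 and 1.37, and with TRAIL alone PGF was at -0.13 and VEGFA at 0.48, or -1.26 by its second probe. PDGFRL was not well above background in NT or in either co-treatment.

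Over the 24 arrays, which fall into 6 groups on 4 slides, the levels of TNF and IL17C had a Pearson r of 0.984, TNF and IL32 of 0.981, and TNF and CD70 of 0.485. Outside the 10 genes, the levels most like TNF were those of TNFAIP2 (r = 0.993), TNFAIP3 (0.980), BCL3 (0.980), CCL20 (0.977) and ICAM1 (0.975). For IL17C they were TNFAIP2 (0.990), TNFAIP3 (0.990), CCL20 (0.986), ICAM1 (0.976) and the mitochondrial ND2 (0.971). For IL32 they were RPLP2 (0.970), BCL3 (0.969), TNFAIP2 (0.968), COX3 (0.958) and SNORD104 (0.957), of which RPLP2, COX3 and SNORD104 were 0.71 to 0.92 above NT with the co-treatments. All points share the scaling of their array and the group they belong to.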

How the data were processed

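RNA of HT29 cells was hybridised to 24 one-colour Agilent arrays, 4 in each of 6 groups taken from the labels. The authors deposited Feature Extraction files (version 10.7.3.1, hg19), whose intensity values were background-subtracted and detrended within each array, per the file headers. They also deposited a table of intensities divided by each array's median, used as an alternative; its 24 columns of flags were not used. The number of arrays limits the precision.

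Spots marked as outliers (190 to 315 an array) and control spots were dropped, log2 values of replicate spots were averaged per probe, and each array's 75th percentile was subtracted. Probes were kept if, in 1 group or more, all 4 arrays showed them well above background (27957 of 50599), and the brightest stood for a gene (20703 genes). limma 3.58.1 in R 4.3.3 fitted the 6 groups together, with 18 residual degrees of freedom, and the median SE of a difference from NT was 0.11. The code was tested on simulated data. No array held a saturated spot. A lower bound compares the brighter group with, on each dim array, the higher of the lowest signal well above background and the probe's own.

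The members and lists were chosen with earlier results of these data known. Named from each list are the 3 called genes, at most, with the largest mean difference over the treatments, and for TNF, IL17C and IL32 the 5 genes with the highest correlation. Alternatives were other scalings, background correction, filter, probes, blocks, thresholds and leaving out each array. The labels number replicates 1 to 4 in every group. Deviations of same-numbered arrays correlated at 0.06 to 0.47 over 60 pairs, and all 4 exceeded 0.1 in 12 of 15 pairs of groups. The median for same-numbered arrays was 0.20, against 0.14 for arrays 1 with 2 or 3 with 4, and -0.17 for arrays 1 or 2 with 3 or 4. These values therefore do not separate pairing by number from a split of 1 and 2 against 3 and 4. The main fit held no term for replicate numbers, which were a block in an alternative. Which arrays are duplicates of one experiment is not given in the sources used here, so p-values measure the spread between arrays.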

Additional observations from a re-analysis of the deposited data

Results flagged for a closer look

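In 60 combinations of gene and group, 4 arrays stood farther from the other 3 than chance gives in about 1 of 20 groups. At that rate about as many would be flagged by chance. IL17C in NT replicate 1 was at -5.53, against -4.74 to -4.59 in the other NT arrays. IL6ST in TRAIL replicate 4 was at 2.08, against 1.95 to 1.96. IL6ST in TRAIL+SN replicate 3 was at 2.26, against 2.10 to 2.12. IRAK2 in TRAIL+C3/C2 replicate 2 was at 1.54, against 1.42 on each of the others.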

How the results depend on the processing

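The alternatives reversed no call. Of the counts of genes higher without overlap, normexp background correction gave 5 in SN over NT (9 in the report), 3 in TRAIL+C3/C2 over TRAIL (5) and 4 in TRAIL+SN over TRAIL (7), and within slide 2 C3/C2 gave 5 (3). Smaller changes of these counts are not listed here, and the counts of 10 in the co-treatments over NT also fell with other scalings. Members called between SN and C3/C2 numbered 4 with array median, quantile or spike-in scaling or the authors' table, IL32 and CSF2 being added, and 0 with normexp (2 in the report). Normexp also gave 0 between the co-treatments (2) and 3 between TRAIL and SN (5). With no minimum fold these became 6, 6 and 8. With the replicate block 1 member, TNFRSF9, was called for the TRAIL effect in SN against C3/C2, with most of its arrays not well above background; the block changed no other member's call. Leaving out single arrays gave 1 to 2 calls for SN against C3/C2, 1 without C3/C2 replicate 2 or SN replicate 3, and 0 to 1 for the TRAIL effect. The genes called between SN and C3/C2 also changed. Without C3/C2 replicate 4, TNF (0.93) and PDGFB (0.95) lost the call, and CSF2 (1.05) and IL32 (1.04) gained it. CSF2 replaced TNF without SN replicate 4, and IL32 replaced PDGFB without C3/C2 replicate 3, SN replicate 1 or SN replicate 2.

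List genes lower than NT varied most. In C3/C2 (7) they were 12 with array median scaling or the authors' table, 11 with quantile or spike-in scaling, 3 with normexp and 22 with no minimum fold. In SN (6) they were 11 with array median scaling or the authors' table, 2 with normexp and 26 with no minimum fold. In TRAIL (1) they were 0 with normexp and 8 with no minimum fold. In TRAIL+C3/C2 (7) they were 19 with array median scaling or the authors' table, 13 with quantile, 25 with spike-in scaling, 2 with normexp and 24 with no minimum fold. In TRAIL+SN (6) they were 16 with spike-in scaling, 1 with normexp and 22 with no minimum fold. List genes higher than NT were 15 in C3/C2 (30) and 20 in SN (33) with normexp, and with no minimum fold 51 in C3/C2, 54 in SN, 37 in TRAIL, and 61 and 59 in the co-treatments with C3/C2 and with SN. The median of all genes moved with the scaling, from 0.08 to -0.23 for C3/C2 with array medians and from 0.10 to -0.56 for TRAIL+C3/C2 and 0.04 to -0.45 for TRAIL+SN with spike-ins. The cause of these changes was not tested. Block alternatives give no value for counts made without a test. Signal over background limits TNF in NT, CSF2 in NT and C3/C2, CD70 in NT, SN and TRAIL, and TNFRSF9 in all groups but TRAIL+SN.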

Other observations

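Replicates 1 and 2 stood together against 3 and 4 in several groups, a split seen in the values and not given by the labels. With TRAIL+SN, 7 of the 10 genes had both arrays 1 and 2 above both arrays 3 and 4, beside 30.5% of all genes, and with TRAIL+C3/C2 4 of 10, beside 31.0%. Deviations of arrays 1 and 2, or of 3 and 4, from their group means correlated between groups at a median of 0.14 over 60 pairs, against -0.17 over 120 pairs that cross the split. A fit with this split as a term, chosen after seeing the data, changed no call.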
